A study of Oryza sativa with 20 samples.

Results

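In rice roots, 47 of the 21237 named genes in the count table were high in the 2 cultivars Azucena and Bala and low in Moddai Karuppan, Niyan Wee and Sarali. They were chosen from the measured values themselves. Counts were scaled to a common library size with edgeR's TMM factors, as CPM, and averaged per cultivar. A gene was taken when the lower of its Azucena and Bala means was at least 5 CPM and at least 4 times the highest mean of the other 3 cultivars. The contrast between the 2 sides is therefore a description throughout and carries no test. For the 47 genes, tests are given for Azucena against Bala and for the 3 low cultivars among themselves. The rule did not use these differences directly, but it takes the lower of 2 means and caps 3 others, which favours genes that differ little within either side. Genes outside the 47, such as their neighbours and the listed gene families, were tested between the 2 sides.

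The series measured root RNA of 5 cultivars by sequencing, with 4 libraries for each cultivar and 20 in all, and its title names aquaporins in Sri Lankan Indica II rice as the subject. The labels set the groups apart by genotype alone: Sarali, Niyan Wee, Moddai Karuppan, Bala and Azucena, all sampled as root. No treatment, age, growth condition or plant number is given. Nothing says that the 4 libraries of a cultivar came from separate plants, so p-values measure only the spread between these libraries. The table's header assigns replicates 1 and 2 to pool P1 and replicates 3 and 4 to pool P2, without saying what was pooled.

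Azucena is an upland tropical japonica cultivar and Bala an upland indica cultivar, and both are known as the parents of a mapping population used for root and drought traits. They come from different subspecies groups of rice. The build named in the processing notes, IRGSP-1.0, is the sequence of the japonica cultivar Nipponbare. Reads of every cultivar are counted against one set of genes in such an analysis, and a read from a diverged copy can be placed elsewhere or lost. Whether this touched the values below was not tested.

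Total counts were 23444525 to 31996667 per library. Ribosomal RNA took 49.2% ± 9.33 of them in Azucena and 73.3% ± 9.12 in Bala, and 4.07% to 64.5% in the other 12 libraries (mean ± SD, n = 4). After ribosomal RNA, 3813600 to 15872310 counts remained in the 8 Azucena and Bala libraries and 10185136 to 28063061 in the other 12, and these ranges overlap. The tissue label was checked with 6 root genes, all of them measured. The root-specific gene RCc3 averaged 515 to 957 CPM in the 5 cultivars. Of the 6 genes, 4 were higher in the Azucena and Bala mean than in the mean of the other 3 cultivars. This was at an edgeR adjusted p under 0.05, beside 12.7% of all genes tested. The 4 were the silicon transporter genes Lsi1 and Lsi2, the Casparian strip gene CASP1 and the regulator SHR1. Lsi1 averaged 178 CPM in Azucena and 404 in Bala, against 206 in Niyan Wee. Lsi2 averaged 130 and 331 CPM against 123, and SHR1 6.48 and 9.13 CPM against 6.21, in the same order. CASP1 averaged 38.4 CPM in Azucena and 29.1 in Bala, against 11.5 in Niyan Wee, the highest of the other means. Among 5 leaf photosynthesis genes, 1 was measured, at 0.128 to 2.46 CPM in the Azucena and Bala libraries and 0.561 to 3.61 CPM in the others. The part of cell composition in the results below was not tested, and in whole roots a larger share of a cell type cannot be told apart from more RNA per cell.

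The 47 genes together made up 950.04 to 1191 CPM in the Azucena libraries and 834 to 1177 CPM in the Bala libraries. In the other 12 libraries they summed to between 49.5 and 118 CPM. For 43 of the 47 genes, all 8 Azucena and Bala libraries lay above all 12 others, a separation shown by 1.12% of all genes (238 of 21237). The choice of genes used this contrast, so nothing is read from that difference. The 4 genes whose libraries overlapped were LOC107275694, LOC4335648, LOC4343822 and LOC4338112. The same rule, set for each other pair of cultivars against the remaining 3, gave 7 genes for Azucena with Moddai Karuppan, 6 with Niyan Wee and 9 with Sarali. Bala gave 1 gene with Moddai Karuppan, 0 with Niyan Wee and 0 with Sarali. Among the other 3, Moddai Karuppan gave 2 with Niyan Wee and 10 with Sarali, and Niyan Wee with Sarali gave 4.

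**Figure D1:**
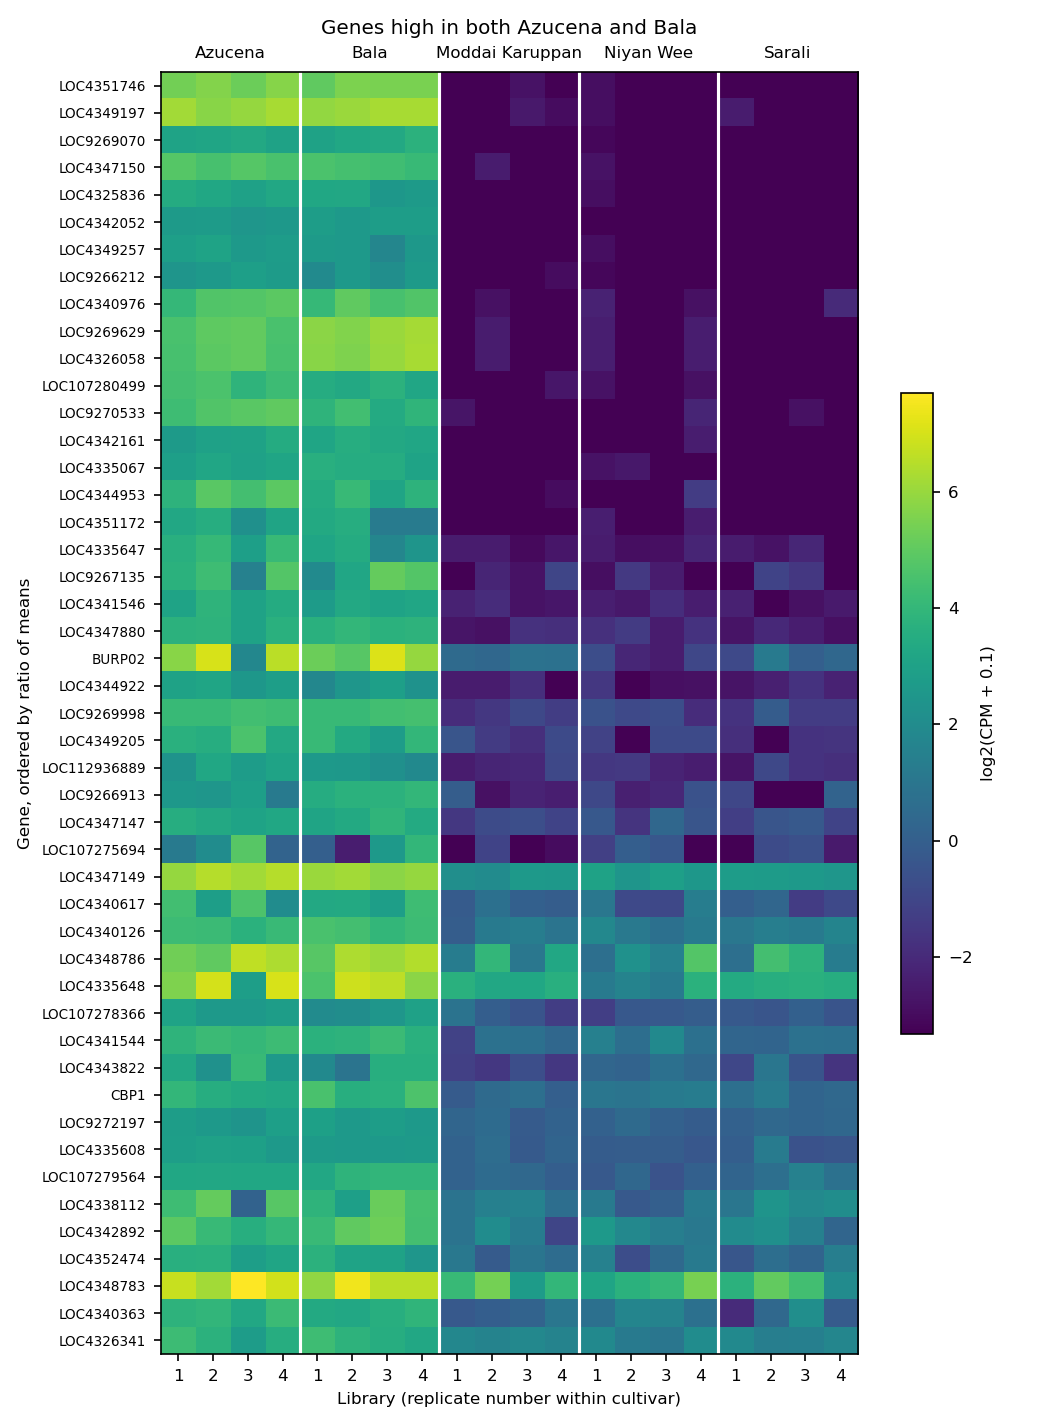
Heat map of the 47 genes (rows, ordered by the ratio of the lower Azucena or Bala mean to the highest other mean) in 20 libraries (columns, replicate number within cultivar); colour is log2(CPM + 0.1). The 8 left columns are bright in nearly every row, the upper 18 rows are close to 0 CPM in the 12 right columns, and the lower rows keep a measurable level there.

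By their level in the other 3 cultivars the genes fell into 3 ranges, with limits chosen here for description. In 18 genes the highest of the 3 means was under 0.1 CPM, in 11 it lay between 0.1 and 1 CPM, and in 18 it was at least 1 CPM. The first range held 15 protein-coding genes and 3 long non-coding RNAs. The second held genes whose ratio was 6.04 to 100.1, and the third genes with a ratio of 4.01 to 45.8. A ratio under 8 was found for 16 genes, and a ratio under 6 for 11. CPM values are not divided by transcript length, so the level of one gene is not compared with that of another.

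**Figure D2:**
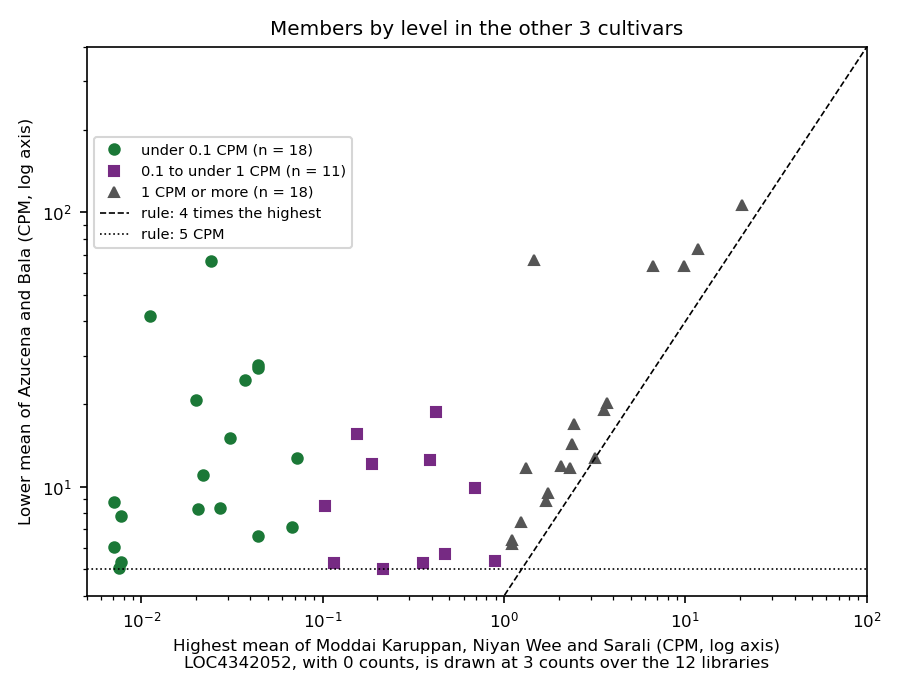
Each of the 47 genes by its highest mean among Moddai Karuppan, Niyan Wee and Sarali (x, CPM, log axis) and the lower of its Azucena and Bala means (y, CPM, log axis), with the 2 thresholds of the rule as lines. The 18 circles lie under 0.1 CPM on the x axis, while most of the 18 triangles lie close to the line for 4 times.

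The 18 genes of the first range were close to absent from the counts of 3 cultivars. Each had at least 1064 counts summed over the 8 Azucena and Bala libraries and 0 to 26 counts summed over the 12 others. All 18 had counts in each Azucena and Bala library. In all, 119 counts of these genes were seen in the 12 libraries, of which 49 were in Niyan Wee replicate 1 and 23 in Niyan Wee replicate 4, or 60.5% in those 2 libraries. The remaining 10 libraries held 47, that is 1 to 9 each. Scaled to library size, the 18 genes summed to 0.758 CPM in Niyan Wee replicate 1 and 0.948 CPM in Niyan Wee replicate 4. The remaining 10 libraries had 0.0385 to 0.361 CPM. Niyan Wee replicate 1 had a count in 14 of the 18 genes and replicate 4 in 9, against 1 to 5 genes in each other library. What put these counts there was not tested.

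LOC4351746 (LOC_Os12g10330, chromosome 12) had 41.4, 51.3, 37.3 and 52.8 CPM in the 4 Azucena libraries and 32.2, 46.3, 44.6 and 44.5 CPM in Bala. It was at 0 in 10 of the other 12 libraries and reached 0.0444 CPM at most, from 4 counts in all against 7891 in Azucena and Bala. LOC4349197 (LOC_Os10g38630, chromosome 10) had 71.9, 53.1, 63.4 and 77.5 CPM in Azucena and 60.7, 67.0, 77.5 and 78.1 CPM in Bala, with 9 counts in the other 12 libraries and 11822 in these 8. Both genes were steady within the 2 high cultivars and reached no more than 0.077 CPM in any other library. Of the 20 values of LOC4349197, 35% were fractional; how fractions arose in counting is not stated.

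LOC4342052 (LOC_Os06g49920, chromosome 6) was the 1 gene with no count in any of the 12 libraries. Its levels were 6.38, 6.51, 5.45 and 5.88 CPM in Azucena and 6.87, 5.94, 6.90 and 6.93 CPM in Bala. Against a floor of 3 counts over the 12 libraries it was at least 857-fold higher, a limit that covers counting error only. Its SD was 0.485 CPM in Azucena and 0.479 CPM in Bala (n = 4), so it varied little where it was present.

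Other genes of the first range with few counts outside Azucena and Bala included the long non-coding RNAs LOC9269070, with 1 count against 1630, and LOC9266212, with 2 against 1064. The coding genes LOC4325836 and LOC4349257 had 2 counts each against 1599 and 1165. LOC4347150 had 5 counts against 4239, and LOC4340976 had 13 against 4484. Of these, LOC4349257 had 3.25 CPM in Bala replicate 3, where the other 3 Bala libraries had 5.77 to 6.29 CPM. These depths cannot show that such a gene was silent in the 3 low cultivars.

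LOC4351172 (chromosome 11) had 9.85, 11.8, 4.51 and 8.62 CPM in Azucena and 10.2, 11.5, 2.30 and 2.31 CPM in Bala, with 8 counts in the other 12 libraries, so Bala replicates 3 and 4 were low. LOC4335647 (chromosome 4) showed a similar split, with 9.01, 11.1, 3.25 and 5.26 CPM in Bala, and was the one gene of the range with counts in 11 of the 12 low libraries. LOC4344953 (chromosome 8) averaged 23.7 ± 7.79 CPM in Azucena and 12.7 ± 3.81 in Bala (SD, n = 4), and 7 of its 8 counts elsewhere fell in 1 library. LOC4335067 and LOC4342161 had 7.39 to 12.4 and 6.29 to 11.7 CPM in the 8 high libraries, and 5 and 2 counts in the others.

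In the middle range, LOC9269998 (chromosome 1) was among the steadiest of the 47, with 17.3, 17.4, 20.5 and 19.7 CPM in Azucena and 17.4, 17.3, 20.8 and 21.8 CPM in Bala. It lay between 0.161 and 0.839 CPM in the 12 other libraries, and 65% of its values were fractional. LOC4347880 (chromosome 9) had 8.19 to 15.6 CPM in the 8 high libraries and at most 0.283 CPM elsewhere. By contrast LOC9267135, with no entry in the reference table, had 13.0, 19.5, 2.77 and 27.0 CPM in Azucena and 3.76, 9.11, 34.5 and 26.9 CPM in Bala, so its libraries spread widely in both cultivars. LOC9266913 (chromosome 2) averaged 5.26 ± 2.21 CPM in Azucena and 13.3 ± 1.72 in Bala, and its log2 fold change of -1.34 did not pass (edgeR adjusted p = 0.264). LOC4344922 and the long non-coding RNA LOC107278366 had 3.37 to 8.99 and 3.89 to 8.27 CPM in the high libraries.

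In the third range the low cultivars kept a measurable level. LOC4340126 (chromosome 6) had 18.6, 18.2, 13.3 and 17.7 CPM in Azucena and 23.3, 21.0, 15.6 and 19.1 CPM in Bala, and 0.861 to 3.42 CPM in the other 12 libraries. LOC9272197 had 5.15 to 7.59 CPM against 0.800 to 1.36 CPM, with no overlap, and 75% of its values were fractional. LOC4342892 (chromosome 7) averaged 19.0 ± 8.10 CPM in Azucena and 27.7 ± 9.88 in Bala, against 0.393 to 6.12 CPM. LOC4340617 ran from 4.08 to 24.7 CPM within Azucena alone and reached 2.43 CPM in the low cultivars. LOC4340363 and LOC4326341 had 9.58 to 18.1 and 6.83 to 19.6 CPM in the high libraries, and reached 4.33 and 4.00 CPM in the low ones.

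LOC9269629 and LOC4326058 (chromosome 1) were the only 2 of the 47 genes called between Azucena and Bala, both higher in Bala. That is 4.26% of the genes, beside 13.7% of all 21225 genes tested, of which 7.76% were higher in Azucena and 5.92% higher in Bala. Because the rule takes the lower of the 2 means, nothing is read from the smaller share. LOC9269629 had 23.3, 31.1, 33.4 and 23.3 CPM in Azucena and 54.8, 49.0, 65.8 and 75.4 CPM in Bala, without overlap. Its log2 fold change, Azucena minus Bala, was -1.14 ± 0.31 (SE; edgeR quasi-likelihood test, Benjamini-Hochberg adjusted p = 0.0211, n = 4 libraries each). LOC4326058 had 22.7, 30.2, 33.0 and 22.7 CPM in Azucena and 54.3, 48.3, 64.4 and 76.5 CPM in Bala, and its log2 fold change was -1.16 ± 0.31 (adjusted p = 0.0197).

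The counts of these 2 genes differed by at most 3.03% in each Azucena and Bala library, were equal in the others, and were fractional in 50% of the libraries. They lie 2 measured genes apart, and whether their reads were divided between near-identical copies was not tested, so they are read as 1 observation rather than 2. Between and beside them lie the long non-coding RNAs LOC4326056 and LOC107276921, whose counts also nearly matched each other. LOC4326056 had a mean of 5.23 ± 0.80 CPM in Azucena, 5.6 ± 1.77 in Bala and 3.30 ± 1.43 in Moddai Karuppan (SD, n = 4), and 0.0157 CPM in Niyan Wee and 0 in Sarali. The place therefore held transcripts that were high in 2 cultivars beside others that were present in 3.

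The call for this pair depended on single libraries. Neither gene passed without Bala replicate 4, Azucena replicate 1 or Azucena replicate 4, and LOC9269629 did not pass without Bala replicate 3; the fold change stayed between -1.27 and -1.03 over all single omissions. Within pool P1 it was -0.92 for LOC9269629 and within pool P2 -1.33, and neither passed with 2 libraries each. The share of ribosomal RNA also differed between Azucena and Bala, as given above. With that share as a term in the model, the fold changes were -1.20 and -1.21 and the adjusted p-values 0.194 and 0.195.

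The remaining 45 genes were not called between Azucena and Bala. Of the 47 genes, 28 had a log2 fold change above 0, beside 11079 of all 21225 genes tested, and 6 had an unadjusted p under 0.05, beside 5575 of all. Their median log2 fold change was 0.13 beside 0.02 for all genes tested, and their median absolute value 0.28 beside 0.32. A p above the threshold does not show that the levels were equal. DESeq2 called 4 of the 47, beside 3549 genes in all, adding the long non-coding RNA LOC9270533 (log2 fold change 0.84, adjusted p = 0.0192) and LOC107280499 (0.82, adjusted p = 0.0071), both higher in Azucena. LOC9270533 had 19.6, 26.3, 30.0 and 32.1 CPM in Azucena and 14.2, 20.4, 10.6 and 14.9 CPM in Bala, with an overlap of 1 Bala library. CBP1 (LOC4351908), 1 of the 2 genes that carry a name, averaged 11.9 ± 2.77 CPM in Azucena and 18.1 ± 6.66 in Bala (SD, n = 4), a log2 fold change of -0.60 (edgeR adjusted p = 0.157).

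**Figure D3:**
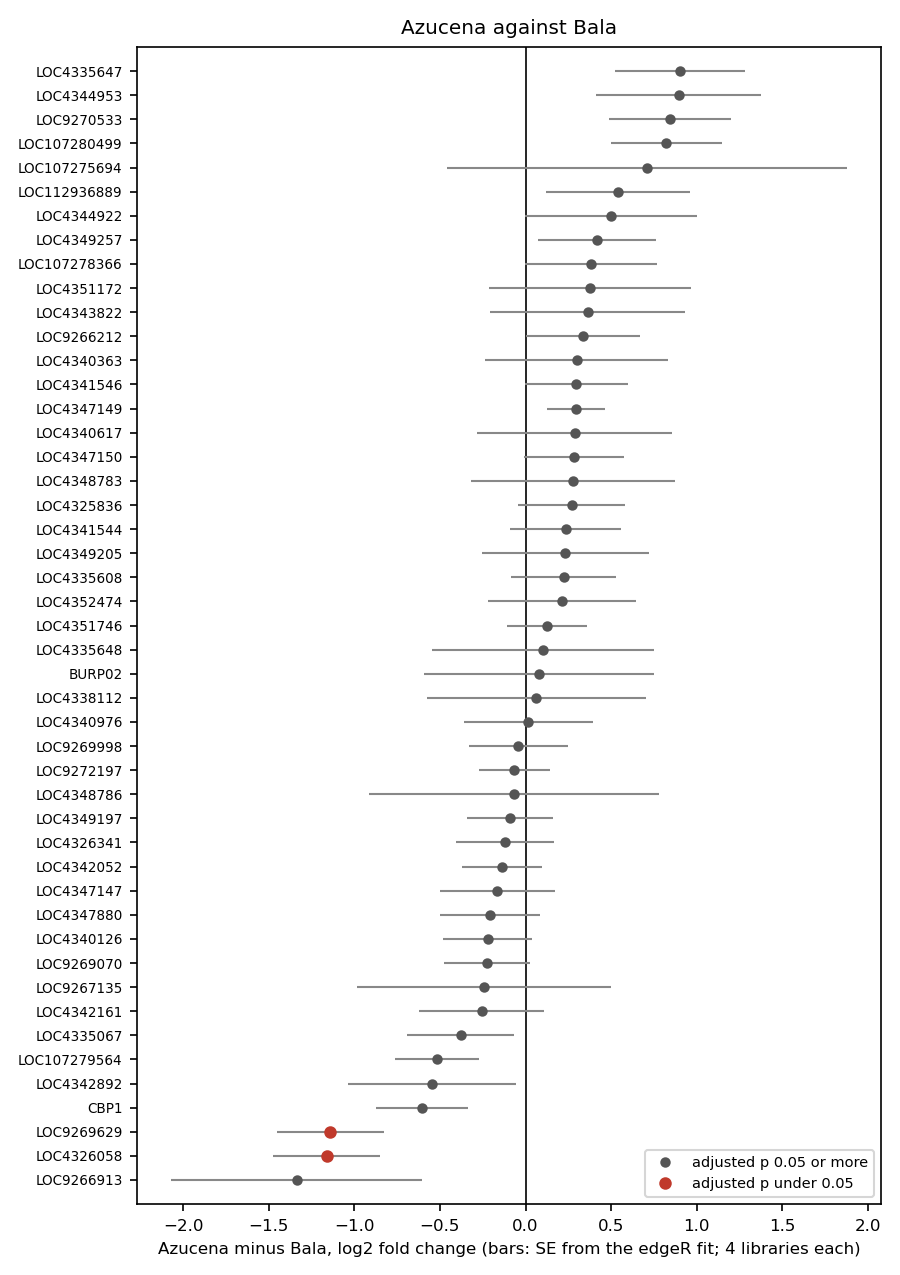
Log2 fold change of Azucena minus Bala for the 47 genes (points), from 4 libraries per cultivar. Bars are the SE worked out from the edgeR F statistic. The 2 red points, LOC9269629 and LOC4326058 at -1.14 and -1.16, are the genes with an adjusted p under 0.05, and wide bars mark genes whose libraries scatter, such as LOC107275694.

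Among Moddai Karuppan, Niyan Wee and Sarali, edgeR's F test called 0 of the 47 genes, beside 4.02% of all genes tested (854 of 21225). At an unadjusted p under 0.05 there were 6, beside 3259 of all genes tested, and DESeq2 called 1, beside 1552 in all. The cap that the rule sets on these 3 means bears on this count too. The gene called by DESeq2 was LOC107279564 (LOC_Os01g05150, chromosome 1), with an adjusted p of 0.0859 in edgeR and 0.0245 in DESeq2. Its highest values among the 12 libraries were 2.75 CPM in Sarali replicate 3 and 1.61 CPM in Sarali replicate 4, its lowest 0.616 CPM in Niyan Wee replicate 3, and the median was 1.14 CPM. The 3 cultivars overlapped. Its 4 Azucena libraries lay within 9.41 to 9.62 CPM, and in Bala it had 9.59 CPM in replicate 1 and 14.5 to 15.3 CPM in the others. For genes near 0 in all 12 libraries this test had little to work with.

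BURP02 (LOC4338119, chromosome 5) was the other named gene. It encodes a protein of the BURP family, plant proteins that share a conserved domain near their C-terminus and are best known from seed, cell wall and stress studies. It had 53.3, 131, 3.31 and 94.5 CPM in Azucena and 37.3, 28.9, 138 and 62.6 CPM in Bala. In the other 12 libraries it lay between 0.0771 and 2.19 CPM, with a median of 1.04. Azucena replicate 3, at 3.31 CPM, stood just above the highest of these, so the groups did not overlap but came close. The mean was 70.5 ± 55.0 CPM in Azucena and 66.8 ± 49.9 in Bala (SD, n = 4), and the log2 fold change between them was 0.08 (edgeR adjusted p = 0.959).

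Directly beside BURP02 lies the transcribed pseudogene LOC4338118, which ran the other way. It had 15.9, 14.7, 0.572 and 12.3 CPM in Azucena, 12.8, 5.12, 31.6 and 13.3 CPM in Bala, and 95.8 to 625 CPM in the other 12 libraries. The Azucena and Bala mean was lower by a log2 fold change of -4.40 ± 0.47 (SE; edgeR adjusted p = 1.1e-06). BURP02 and the pseudogene together summed to 81.4 ± 60.4 CPM in Azucena and 82.6 ± 60.9 in Bala, and to 383 ± 119 in Sarali, 380 ± 169 in Moddai Karuppan and 144 ± 40.4 in Niyan Wee (SD, n = 4). BURP02 made up 85.2% and 80.8% of this sum in Azucena and Bala and at most 0.448% in the others. Of the BURP02 values, 85% were fractional. In Bala replicates 1 to 3 the deposited values of BURP02 were 576.33, 666.67 and 1746.67, where the pseudogene had whole values of 197, 118 and 399. With which genes, if any, the reads of BURP02 were divided was not tested. Nearby genes with fractional values in the same libraries are given below.

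Of the 9 BURP genes named in the reference table, 3 were measured in these roots. BURP16 was the only one lower in the Azucena and Bala mean (log2 fold change -3.05, edgeR adjusted p = 8.7e-06), but its mean was 0.818 CPM in Azucena and 27.9 CPM in Bala. BURP12 had a log2 fold change of 0.22 and was not called.

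LOC4338112, a pseudogene with 7 measured genes between it and BURP02, ranked the libraries of Azucena in the same order as BURP02 did, and those of Bala too. Of the LOC4338112 values, 80% were fractional, beside 85% for BURP02, and both genes had whole values in Bala replicate 4 and Azucena replicate 3. Whether reads were divided between LOC4338112 and BURP02 was not tested, so their shared order may not be 2 separate observations. LOC4338112 had 19.7, 34.5, 0.993 and 28.9 CPM in Azucena and 14.5, 7.5, 37.0 and 21.8 CPM in Bala. In the other 12 libraries it had 0.754 to 5.22 CPM. Azucena replicate 3 fell inside the range of the low cultivars. The coding gene next to it, LOC9268921, was again opposite, with means of 0.0779 CPM in Azucena and 0.103 in Bala. The means were 11.6 ± 4.76 in Sarali, 8.64 ± 2.03 in Moddai Karuppan and 4.96 ± 2.32 in Niyan Wee (SD, n = 4). In Bala replicates 1 to 3 the deposited values of LOC9268921 were 1.83, 0.67 and 2.67. LOC4338112 had 222.83, 172.67 and 466.67 there. Whether reads were divided among LOC9268921, LOC4338112 and BURP02 was not tested, so the opposite direction of LOC9268921 may not be a separate observation. The 2 genes after LOC9268921, LOC9271160 and LOC107280886, were also lower in the Azucena and Bala mean, by log2 fold changes of -4.37 and -3.38 (adjusted p = 1.57e-05 and 0.000214).

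**Figure D4:**
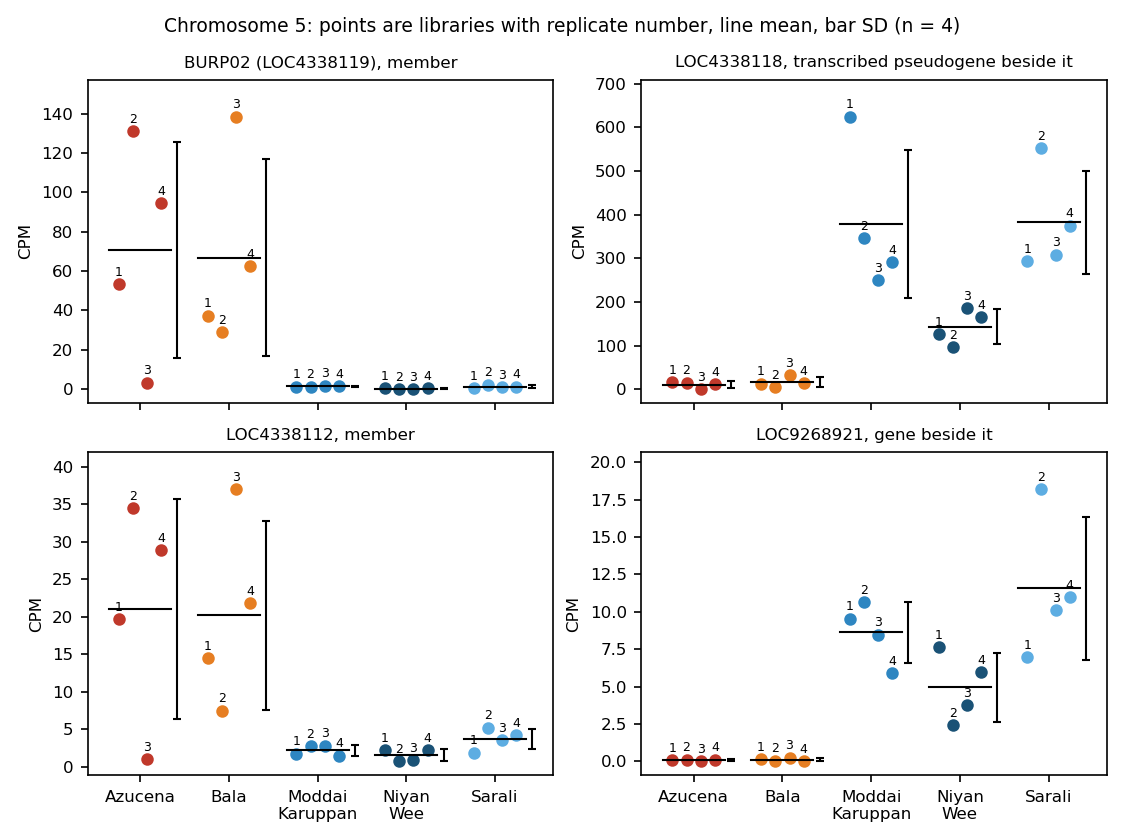
CPM of BURP02 and the transcribed pseudogene beside it, and of LOC4338112 and the gene beside it, in every library (points with replicate number, horizontal line the mean, bar the SD, n = 4). The left panels are high in Azucena and Bala except for Azucena replicate 3 at 3.31 and 0.993 CPM, and the right panels are high in the other 3 cultivars.

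LOC4335648 (LOC_Os04g31520) was likewise low in Azucena replicate 3, with 47.5, 129, 7.10 and 132 CPM in Azucena and 23.9, 116, 97.7 and 56.2 CPM in Bala. Its other 12 libraries ran from 2.15 to 13.3 CPM with a median of 11.1. Niyan Wee replicates 1 to 3 had 2.15 to 2.95 CPM, while Niyan Wee replicate 4 had 13.3 CPM, close to the Moddai Karuppan and Sarali libraries. LOC107275694 (LOC_Os03g45740) went the other way in the same library, with 2.24, 3.99, 28.5 and 1.04 CPM in Azucena. In Bala it had 0.908, 0.0867, 5.95 and 15.8 CPM, and up to 0.880 CPM in the other 12 libraries. Its place among the 47 rested on a few libraries. LOC4343822 was similar in Bala, with 3.70, 1.82, 12.0 and 12.2 CPM, and reached 1.91 CPM in the low cultivars.

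The 47 genes differed in how steady they were within the 2 high cultivars. Their median coefficient of variation was 22.0% in Azucena and 24.5% in Bala, beside 17.5% and 18.4% for 11431 other genes with a level in the same range. Levels were not matched within that range, so nothing is read from this difference. The least variable gene in Azucena was LOC107279564 (0.934%) and the most variable LOC107275694 (146%). When each of the 20 libraries was left out in turn, 39 of the 47 genes met the rule every time. Within pool P1 alone and pool P2 alone, 31 of the 47 met it in both. LOC4348783 and LOC4338112, described elsewhere, met it in neither pool, and LOC4348786 in 1. LOC112936889, a long non-coding RNA at 5.04 CPM and thus just above the level threshold, met it in 9 of 20 omissions, and LOC4326341, at a ratio of 4.01, in 11.

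Genes just inside the ratio threshold were LOC4326341 at 4.01, LOC4340363 at 5.06 and LOC4348783 at 5.17, and those just outside it LOC4342310 at 3.88, LOC4331942 at 3.87 and LOC4351174 at 3.86. Just above the level of 5 CPM stood LOC112936889 at 5.04, LOC9266212 at 5.08 and LOC9266913 at 5.26 CPM. Just below it were LOC9270094 at 4.98, LOC107280502 at 4.92 and LOC4333011 at 4.83 CPM. LOC107280502 had no count in the 12 other libraries, so the threshold divided genes of like pattern.

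By type, 38 of the 47 genes were protein-coding (80.9%, beside 90.8% of all rows), 5 were long non-coding RNAs (10.6% beside 4.93%), 1 was a pseudogene and 3 had no entry in the reference table. Long non-coding RNAs are transcripts without a clear coding frame, and pseudogenes are copies that have lost it. An MSU7 locus identifier, from an older annotation of the same cultivar, was missing for 10 genes (21.3% beside 10.5%). A gene name or synonym was given for 2 (4.26% beside 13.2%). At least 1 fractional value was found for 23 (48.9% beside 18.9%); whether their reads were divided with other genes was not tested. As a share of its rows, chromosome 6 held 0.591% (10 of 1692), chromosome 10 held 0.465% (5 of 1075) and chromosome 9 held 0.345% (4 of 1161). Chromosome 4 held 0.327% (6 of 1836) and chromosome 1 held 0.234% (7 of 2991), beside 47 of all 21237 rows.

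Of the 47 genes, 44 could be placed in the gene order of the reference table, and 16 of these lay within 10 measured genes of another. The genes next to them, which the rule had not taken, were tested between the Azucena and Bala mean and the mean of the other 3 cultivars. Of 82 nearest measured neighbours, 31 were higher (37.8%, beside 12.7% of all genes tested) and 12 lower (14.6%, beside 11.9%). Counting a neighbour only when both the Azucena and the Bala mean also exceeded each other mean, 29 were higher (35.4%, beside 9.81%). The share called higher was 33.3% for genes 2 places away, 31.8% at 3, 22.0% at 4 and 25.9% at 5. A higher nearest neighbour was found for 26 of the 44 genes and a lower one for 11.

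Neighbours of the 18 genes near 0 were higher in 41.2% of cases, those of the middle range in 36.8% and those of the genes with at least 1 CPM in 36.7%. Among the 58 nearest neighbours whose deposited values were all whole numbers, 21 were higher. Neighbouring genes can overlap or share promoters and reads, and they are not independent of each other, so no p is given for these shares. With the share of ribosomal RNA as a term in the model 22 neighbours were higher, beside 6.58% of all genes. Within pool P1 alone 22 were higher, beside 5.75%, and within pool P2 alone 23, beside 7.08%.

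**Figure D5:**
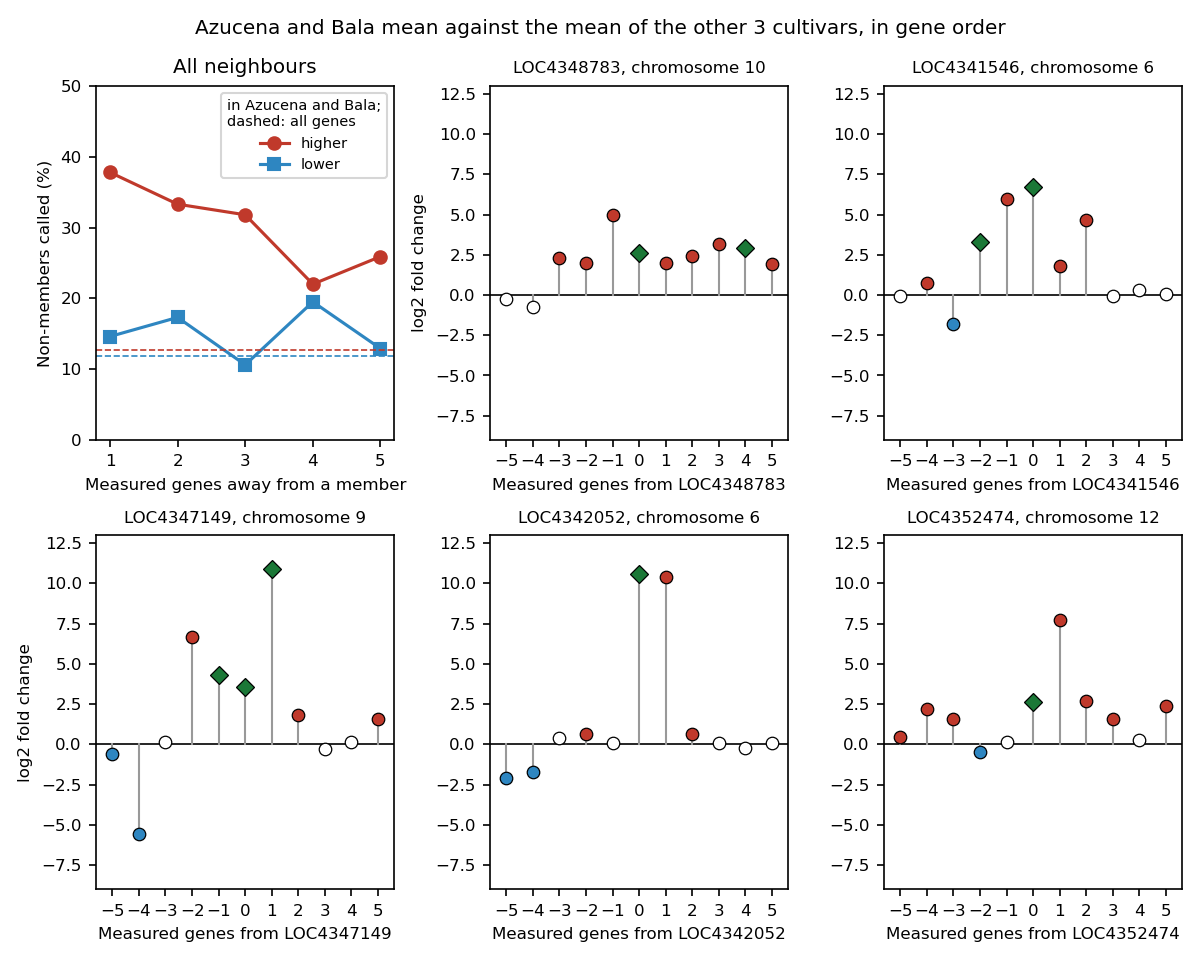
Top left, percent of non-member genes called higher (red) or lower (blue) in the Azucena and Bala mean against the other 3 cultivars, by distance in measured genes, with dashed lines at 12.7% and 11.9% for all genes. Other panels show log2 fold changes in gene order around 5 members (diamonds members; filled circles called, open circles not called); values of genes at or near 0 CPM depend on the prior count of the fit and are no measure of size.

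On chromosome 10, a stretch of 9 measured genes held LOC4348783 and LOC4348786, and all 7 others in it were higher in the Azucena and Bala mean. The stretch was marked off after these values were seen, so nothing is read from that count. LOC4348783 had 109, 72.4, 210 and 123 CPM in Azucena and 58.9, 176, 94.7 and 94.0 CPM in Bala, and 3.88 to 43.7 CPM in the other 12 libraries. LOC4348786 had 40.0, 32.4, 101 and 81.0 CPM in Azucena and 28.7, 81.1, 69.0 and 87.7 CPM in Bala, and 1.54 to 26.9 CPM elsewhere. Both were highest in Azucena replicate 3 among the Azucena libraries, and both were highest in Niyan Wee replicate 4 among the 12 low libraries. Of the 7 neighbours, LOC4348779 had a log2 fold change of 2.30 ± 0.37 (SE; edgeR adjusted p = 0.000131) and LOC107279011 of 3.21 ± 0.77 (adjusted p = 0.00481). The other 5 had values of 1.93 to 4.97. LOC9270523 overlapped between the sides, reaching 113 CPM in a low library against a lowest value of 27.9 CPM in Azucena and Bala.

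Farther along chromosome 10 lay LOC4349197 and LOC4349205, with 3 measured genes between them. LOC4349205 averaged 14.6 ± 6.41 CPM in Azucena and 12.5 ± 4.83 in Bala, and at most 0.646 CPM in any other library. The gene next to LOC4349197, LOC4349200, had a log2 fold change of 1.88 ± 0.41 (adjusted p = 0.00244). GSTU6, which encodes a glutathione S-transferase of the tau class, enzymes that join glutathione to reactive compounds, lay next to LOC4349205 and had a log2 fold change of 2.18.

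Chromosome 9 held the only 3 members in direct sequence, LOC4347147, LOC4347149 and LOC4347150. LOC4347147 averaged 9.90 ± 1.47 CPM in Azucena and 11.1 ± 2.66 in Bala, and lay between 0.220 and 1.18 CPM in the low cultivars. LOC4347149 averaged 78.4 ± 13.2 and 63.9 ± 7.25 CPM, against 3.93 to 8.13 CPM, and 80% of its values were fractional. LOC4347150 averaged 25.3 ± 2.86 and 20.8 ± 2.86 CPM, against at most 0.0802 CPM (SD, n = 4). In none of the 3 genes did the 8 high libraries overlap with the other 12. The next gene, LOC4347151, had 43.6 to 59.0 CPM in the 8 libraries and 8.82 to 18.8 in the 12, a log2 fold change of 1.83 ± 0.12 (edgeR adjusted p = 8.34e-10). The gene directly before them, LOC4347145, was seen mainly in Azucena, at 3.20 ± 0.59 CPM, with 0.0486 CPM in Bala and 0 in the other 12 libraries.

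On chromosome 6, LOC4341544 and LOC4341546 had 1 gene between them. LOC4341544 averaged 16.9 ± 2.05 CPM in Azucena and 14.4 ± 2.53 in Bala against 0.350 to 3.72 CPM, and LOC4341546 averaged 10.4 ± 2.91 and 8.49 ± 1.54 CPM against at most 0.173 CPM. The gene between, LOC4341545, had a log2 fold change of 5.99 ± 0.56 (adjusted p = 1.58e-07), and the 2 after them, LOC107281450 and LOC4341547, had 1.78 ± 0.24 and 4.69 ± 0.42 (adjusted p = 1.59e-05 and 8.57e-08). These 3 missed the rule by their level or their ratio. The expansin gene EXPA16, 2 places farther, was not called (0.30, adjusted p = 0.318). Expansins loosen the cell wall; of 27 measured in all, none was among the 47, and 18 were higher in the Azucena and Bala mean, beside 12.7% of all genes tested.

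LOC4342052, the gene with no count outside Azucena and Bala, lay beside LOC4342053 on chromosome 6. LOC4342053 averaged 4.32 ± 2.59 CPM in Azucena and 14.6 ± 3.30 in Bala, and reached 0.0303 CPM in 1 library of Moddai Karuppan and 0 in the rest. The gene on the other side, LOC4342051, had a log2 fold change of 0.06 (adjusted p = 0.687), with means of 10.5 to 12.0 CPM in all 5 cultivars. The alpha-amylase gene AMY1.5, after LOC4342053, was higher by a log2 fold change of 0.64 ± 0.22 (adjusted p = 0.0382). The near-complete contrast here covered 2 adjacent genes.

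A like pair stood on chromosome 4. LOC107280499 had 21.4, 23.7, 14.4 and 18.8 CPM in Azucena and 11.3, 10.1, 13.6 and 9.24 CPM in Bala, and 6 counts in the other 12 libraries. Its neighbour LOC4336806 had 3.18 to 8.65 CPM in the 8 libraries and was at 0 in all 12 others, and missed the rule by its Bala mean of 4.38 CPM. The genes on either side of this pair, LOC9267767 and LOC9266197, had log2 fold changes of -0.34 and 0.42 and were not called.

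Elsewhere on chromosome 4, LOC4335608 averaged 7.23 ± 0.70 CPM in Azucena and 6.19 ± 0.15 in Bala against 0.582 to 2.28 CPM, and neither direct neighbour was called. KIN10B, 2 places away, was higher (log2 fold change 2.14 ± 0.21, adjusted p = 3.34e-07), while the pseudogene LOC4335604 before it was lower, at 0.011 CPM in Azucena and 0 in Bala against 0.683 to 1.28 CPM in the other means (adjusted p = 1.88e-06). On chromosome 12, LOC4352474 averaged 10.3 ± 2.66 and 8.89 ± 3.40 CPM against 0.503 to 2.81 CPM. The 3 genes after it were all higher, LOC4352475 by 7.73 ± 0.45, LOC4352476 by 2.72 ± 0.15 and LOC9269074 by 1.57 ± 0.21. LOC4351746 on the same chromosome lay between LOC4351745 (0.70 ± 0.17, adjusted p = 0.00457) and LOC9267818 (3.31 ± 0.30, adjusted p = 1.31e-07), of which the second averaged 2.31 CPM in Azucena and 13.5 in Bala. Higher and lower neighbours thus stood side by side at some places, and at others a member differed alone.

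Of the gene lists looked at beside the 47, chosen for root cell walls, metal uptake and defence, the BURP list alone held a member. The Casparian strip family, which seals the root endodermis, had 2 genes higher and 2 lower of 23 measured, beside 12.7% and 11.9% of all genes tested. Of 3 nicotianamine synthase genes, which make a metal chelator, 1 was higher, NAS3. The other 2 differed between Azucena and Bala, beside 13.7% of all genes tested. NAS1 averaged 2.58 CPM in Azucena and 33.4 in Bala (edgeR adjusted p = 0.0140). NAS2 averaged 3.96 and 39.3 CPM (edgeR adjusted p = 0.0252). Of the diterpenoid phytoalexin list, defence compounds of rice, 3 of 7 genes were measured and none is among the 47.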

How the data were processed

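The authors deposited expected counts for each gene in each library, per the file headers and the values, of which 7.58% are not whole. The submitters' processing notes name HISAT2 without a version, edgeR 3.36.0 and IRGSP-1.0, without roles. How reads were counted, with which annotation and strand setting, and what became of reads that match more than 1 gene, is not given in the sources used here. Libraries were made with a stranded total RNA kit with ribosomal RNA removal, per the labels' protocols, although a label names polyadenylated RNA. Values of near-identical or overlapping genes are therefore uncertain.

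The design assumed counts; the fractional values were rounded first. Another 2 rows without a gene name held no counts and were left out. Genes were filtered with filterByExpr (minimum count 10), leaving 21225 and removing 12, none of the 47. TMM scaling and edgeR 4.0.16 quasi-likelihood tests (R 4.3.3) used 1 mean per cultivar over 20 libraries, with Benjamini-Hochberg adjustment over all genes tested and a threshold of 0.05. Each SE of a fold change is the absolute log2 fold change divided by the square root of the F statistic, and is approximate for genes near 0 CPM. Alternatives included DESeq2 1.42.0. The test was tried on simulated data. The floor of 3 counts over the 12 low libraries covers counting error only.

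Names, biotypes and gene order came from a RefSeq table of assembly ASM3414082v1, to which 20839 of 21237 rows were matched; it is another build, so no coordinates are given, and promoter or protein sequences were not used here. The members, the gene lists and most alternatives were chosen with earlier results of these data known. Genes were named by level, ratio, place near a threshold, call, adjacency or having a name. Neighbours, and members singled out for scatter, were chosen after their values were seen. Same-numbered libraries were checked for shared deviation; replicate 1 gave correlations of 0.063 to 0.41, and the others ran from -0.39 to 0.46, so the numbers were not taken as pairs.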

Additional observations from a re-analysis of the deposited data

Results flagged for a closer look

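Within groups of 4 libraries, 11 of 152 sets of values held a library far from the other 3; chance alone gives about 1 in 20. LOC107275694 had 28.5 CPM in Azucena replicate 3 against 1.04 to 3.99 CPM in the other Azucena libraries, and LOC4340126 had 13.3 CPM there against 17.7 to 18.6 CPM. Niyan Wee replicate 4 stood above its group for LOC4335648 (13.3 CPM against 2.15 to 2.95), for LOC4348786 (26.9 CPM against 1.55 to 4.75) and for the sum of all 47 genes (118 CPM against 49.8 to 55.4).

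In Bala, replicate 1 was low for LOC107279564 (9.59 CPM against 14.5 to 15.3) and for LOC4351746 (32.2 CPM against 44.5 to 46.3). LOC4342052 was low in Bala replicate 2, at 5.94 CPM against 6.87 to 6.93, and LOC4349257 in Bala replicate 3, at 3.25 CPM against 5.77 to 6.29. LOC4340617 had 1.60 CPM in Moddai Karuppan replicate 2 against 0.807 to 0.933 CPM. The 18 genes near 0 outside Azucena and Bala summed to 0.0466 CPM in Sarali replicate 2, against 0.147 to 0.166 CPM in the other Sarali libraries. The causes were not tested.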

How the results depend on the processing

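The number of genes taken by the rule was 44 to 55 over the 20 single omissions, of which 43 to 47 were shared with the 47, and 48 when Sarali replicate 3 and Niyan Wee replicates 2 and 3 were left out. It was 131 at 2 times, 31 at 8 times, 87 at 2 CPM, 26 at 10 CPM, 21 when the lowest and highest libraries replaced the means, and 81 without ribosomal RNA rows, whose removal raises every CPM. For other pairs of cultivars it was 7, 6 and 9 (Azucena with Moddai Karuppan, Niyan Wee and Sarali), 1, 0 and 0 (Bala in the same order), 2 and 10 (Moddai Karuppan with Niyan Wee and Sarali) and 4 (Niyan Wee with Sarali). The count of members called between Azucena and Bala was 0 to 2 over single omissions, 0 without Bala replicates 3 and 4, 0 in pool P1 alone, 0 in pool P2 alone, 0 with the ribosomal RNA share as a term, 5 with only the 8 libraries compared and 4 with DESeq2. In these 4 settings with 0 calls, in the order given, LOC9269629 was at -0.91, -0.92, -1.33 and -1.20 and LOC4326058 at -0.93, -0.94, -1.35 and -1.21; over single omissions they lay between -1.24 and -1.03 and between -1.27 and -1.04. BURP02 was not called anywhere and changed sign: its log2 fold change of 0.08 ran from -0.41 to 0.72 over single omissions and was -1.05 in pool P2 alone, 1.49 in pool P1 alone and 1.1 without Bala replicates 3 and 4. Among the 3 low cultivars the count of 0 became 1 with DESeq2 and 0 to 1 over single omissions (1 without Niyan Wee replicate 2 or Sarali replicate 1). The causes of these changes were not tested. The count of 31 higher nearest neighbours, a comparison added after the data were seen, was 27 to 31 over single omissions and 21 to 33 over the other settings.

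The replicate numbers share a label but were not shown to pair the libraries. With a replicate block the count between Azucena and Bala stayed at 2 and that among the low cultivars at 0, 30 neighbours were higher, and BURP02 was at -0.055. Depth limits what can be said of genes with few counts in 12 libraries, and the lowest Bala library held 3813600 counts outside ribosomal RNA.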
